A study of Homo sapiens with 6 samples.

Results

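Zinc transporters, metallothioneins and the zinc-sensing factor MTF1 were described in HT1080 cells, a human fibrosarcoma line. The genes were chosen by a rule on symbols that uses no measured value, but it was set with earlier results of these data known. The rule takes every SLC30A and SLC39A gene, every MT1 or MT2 gene with a single letter after the digit, and MTF1. This gave 34 of the 21619 entries in the deposited tables, of which 9 are metallothioneins, 14 belong to the SLC39A (ZIP) family and 10 to the SLC30A (ZnT) family. One group of 3 libraries came from cells with stable overexpression of PGK1, a glycolytic kinase (PGK1_OE), and the other 3 came from cells labelled WT (PGK1_WT). The labels do not say whether the WT cells carry an empty vector, whether the overexpressing line is 1 clone or a pool, which promoter drives PGK1, or whether replicates were separate cultures. The p-values therefore rest on library-to-library spread alone, and that spread may be technical.

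ZIP proteins move zinc into the cytosol, from outside the cell or out of organelles, and ZnT proteins move it the other way, out of the cell or into organelles and vesicles. Metallothioneins are small cysteine-rich proteins that bind zinc and copper and keep free zinc low. MTF1 is the transcription factor that senses zinc and activates metallothionein genes and SLC30A1 through metal response elements.

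Libraries held between 34425162 and 40538274 counts. PGK1 mRNA was 24.2-fold higher in PGK1_OE than in PGK1_WT libraries, the direction the labels give. Of 9 markers of a mesenchymal or fibrosarcoma line 5 were higher, 2 lower and 2 not called in PGK1_OE (77.8% called, beside 71.2% of all entries tested, by the rule given below). VIM was at 1723 ± 18.8 FPKM in PGK1_OE and 943 ± 106 FPKM in PGK1_WT (SD, n = 3 each). MMP14, CD44 and FN1 were abundant too, from 75.1 to 648 FPKM in PGK1_OE and from 52.2 to 386 FPKM in PGK1_WT. MMP2, S100A4, NT5E, THY1 and COL1A1 were low, from 0.00914 to 5.08 FPKM in PGK1_OE and from 0.0868 to 4.18 FPKM in PGK1_WT. Of 16 markers of epithelial, endothelial, blood, liver, islet and nerve cells, 5 were at 0 in every library (EPCAM, PTPRC, CD14, ALB and INS), and of 5 tested 2 were higher and 2 lower in PGK1_OE (80% called, beside 71.2% of all entries). CDH1 was lower, with 0 counts in each PGK1_OE library and 17, 28 and 16 counts in PGK1_WT libraries, and RBFOX3 was lower, with 10 counts over the PGK1_OE libraries and 194 over the PGK1_WT libraries. SNAP25 and PECAM1 were higher, and they made up most of the summed level of the list. That sum was 5.70 to 7.11 FPKM in PGK1_OE and 3.06 to 3.64 FPKM in PGK1_WT libraries, while the median log2 fold change of the 5 tested was -0.71. Their part in the results below was not tested.

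Of the 34 genes, 22 passed the filter on low counts and were tested. Levels are given as normalised CPM (counts scaled to library size, with TMM factors) or, where genes are compared with each other, as the authors' FPKM, which is scaled by length. Fold changes are PGK1_OE over PGK1_WT on the log2 scale of counts, with p-values from edgeR's quasi-likelihood test adjusted by Benjamini-Hochberg over 14322 entries, and an adjusted p under 0.05 counts as a change. By this rule 10 genes rose, 8 fell and 4 were not called. In bulk RNA, a different share of expressing cells and a different level per cell cannot be told apart. The 18 called are 81.8% of those tested, beside 71.2% of all entries tested, so the share alone does not set the zinc genes apart. All entries tested divided almost evenly, with 35.4% higher and 35.8% lower. The median log2 fold change was -0.05 for the zinc genes and -0.02 for all entries. Changes of 2-fold or more were limited to 4 genes, 18.2% of those tested against 24.1% of all entries. In 19 of the 22 the PGK1_OE and PGK1_WT values did not overlap, or 86.4%, beside 76.4% of all entries.

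The 4 genes with the largest changes were MT2A, MT1E, MT1X and SLC39A7. All 3 metallothioneins with counts rose, and so did 5 of 7 tested cell-surface importers (71.4%), beside 35.4% of all entries tested. The 3 ZnT genes of the secretory pathway, the mitochondrial ZnT gene and MTF1 fell by smaller amounts. Of all entries tested, 35.8% were lower. Each role holds few tested genes. Summed over the ZIP family, levels were 333 to 346 FPKM in PGK1_OE and 279 to 288 FPKM in PGK1_WT libraries. Summed over the ZnT family, they were 78.6 to 81.4 FPKM in PGK1_OE and 97.3 to 99.2 FPKM in PGK1_WT libraries. Neither pair of ranges overlapped. These sums are weighted towards the most abundant genes and were not tested. SLC39A7, grouped as intracellular, carried most of the difference in the ZIP sum. It averaged 77.3 FPKM in PGK1_OE and 29.4 FPKM in PGK1_WT, while the ZIP sum averaged 340 FPKM in PGK1_OE and 282 FPKM in PGK1_WT.

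**Figure D1:**
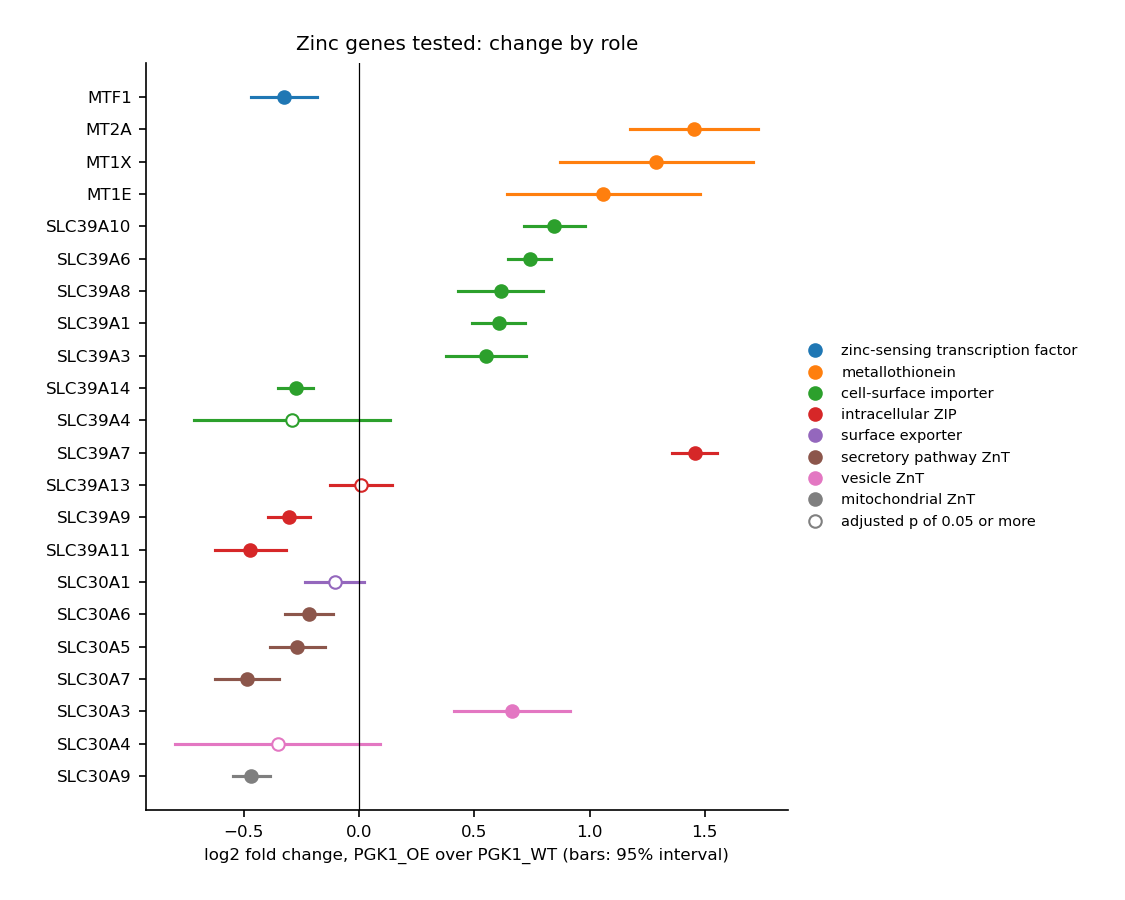
Log2 fold change of PGK1_OE over PGK1_WT for the 22 tested zinc genes, grouped by role, with 95% intervals from edgeR; open circles have an adjusted p of 0.05 or more. The 3 metallothioneins and SLC39A7 lie above 1, and the secretory pathway ZnT genes and MTF1 lie below 0.

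MTF1, the sensor itself, fell. It measured 32.0, 29.1 and 29.2 CPM in the PGK1_OE libraries, against 39.0, 35.7 and 38.6 CPM in the PGK1_WT libraries. The groups did not overlap, with a log2 fold change of -0.33 (edgeR adjusted p = 8.14e-04, SE 0.07). At 3.47 ± 0.203 FPKM in PGK1_OE and 4.50 ± 0.180 FPKM in PGK1_WT (SD, n = 3 each) it was among the less abundant of the tested zinc genes. These are mRNA levels, and MTF1 is known to be controlled by zinc binding and nuclear entry as well, which were not measured.

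Metallothioneins moved the other way from MTF1. MT2A, the most abundant isoform in these cells, measured 172, 182 and 183 CPM in the PGK1_OE libraries, against 65.5, 55.0 and 75.2 CPM in the PGK1_WT libraries. Every PGK1_OE library lay far above every PGK1_WT library. MT2A thus rose 2.74-fold, a log2 fold change of 1.45 (edgeR adjusted p = 4.34e-05, SE 0.11, 95% interval 1.18 to 1.73).

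MT1X followed with 6.85, 5.34 and 5.76 CPM in PGK1_OE, against 2.38, 2.12 and 2.84 CPM in PGK1_WT libraries (log2 fold change 1.29, edgeR adjusted p = 7.43e-05, SE 0.19). MT1E had 14.8, 15.1 and 14.6 CPM in PGK1_OE, against 7.97, 4.87 and 8.50 CPM in PGK1_WT libraries (1.06, edgeR adjusted p = 5.39e-04, SE 0.19). Neither gene's groups overlapped, and PGK1_WT replicate 2 was the lowest library for all 3 metallothioneins. The intervals of the 3 log2 fold changes overlap, so these data do not order the genes by size of change.

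MT2A made up most of the family's RNA. Its share of summed metallothionein FPKM was 91.8% to 92.7% in PGK1_OE and 90.5% to 91.7% in PGK1_WT libraries. By length-scaled level, MT2A stood at 397 ± 13.7 FPKM in PGK1_OE and 150 ± 22.2 FPKM in PGK1_WT (SD, n = 3 each). MT1E followed at 19.3 ± 0.381 FPKM in PGK1_OE and 9.50 ± 2.57 FPKM in PGK1_WT, and MT1X at 13.3 ± 1.57 FPKM in PGK1_OE and 5.52 ± 0.799 FPKM in PGK1_WT.

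The other 6 metallothioneins of the rule, MT1A, MT1B, MT1F, MT1G, MT1H and MT1M, had 0 counts in all 6 libraries. A count of 0 allows a level of up to 0.0750 to 0.0851 CPM per library (3 counts, counting error only). Zero counts in every library were also found for 15.8% of all entries. Whether reads of these genes were dropped because they match several copies was not tested. Exact 50-base windows were compared across GENCODE 29 transcripts. For each of these 6 genes, between 1.22% (MT1F) and 19.0% (MT1B) of the windows also occur in a transcript of another gene. Windows that nearly match were not counted, so these shares do not show how reads were assigned. Of the windows of the other 3, the share was 3.02% for MT2A, 7.10% for MT1E and 18.3% for MT1X. Most of the shared windows of MT1X lie in AC026461.1, which overlaps it on the same strand. Summing all 9 genes into 1 feature removes any split of reads among them, but does not restore reads dropped or given to other genes. The sum was 193, 202 and 203 CPM in PGK1_OE, against 75.9, 62.0 and 86.6 CPM in PGK1_WT libraries, and MT2A made up most of it. The sum did not overlap between groups, and its log2 fold change was 1.42 (edgeR adjusted p = 1.27e-04, SE 0.12).

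The 9 genes lie within 76.0 kb of chromosome 16 (GRCh38, GENCODE 29). MT2A comes first (56608199 to 56609497, plus strand) and MT1E second (56625475 to 56627112, plus strand), 17.3 kb on. MT1X is the last (56682424 to 56684196, plus strand), 74.2 kb from the start of MT2A. The 6 genes without counts fill the stretch between MT1E and MT1X. This order covers only the 9 genes of the rule, and metallothionein genes outside the rule, such as MT3 and MT4, were not placed.

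**Figure D2:**
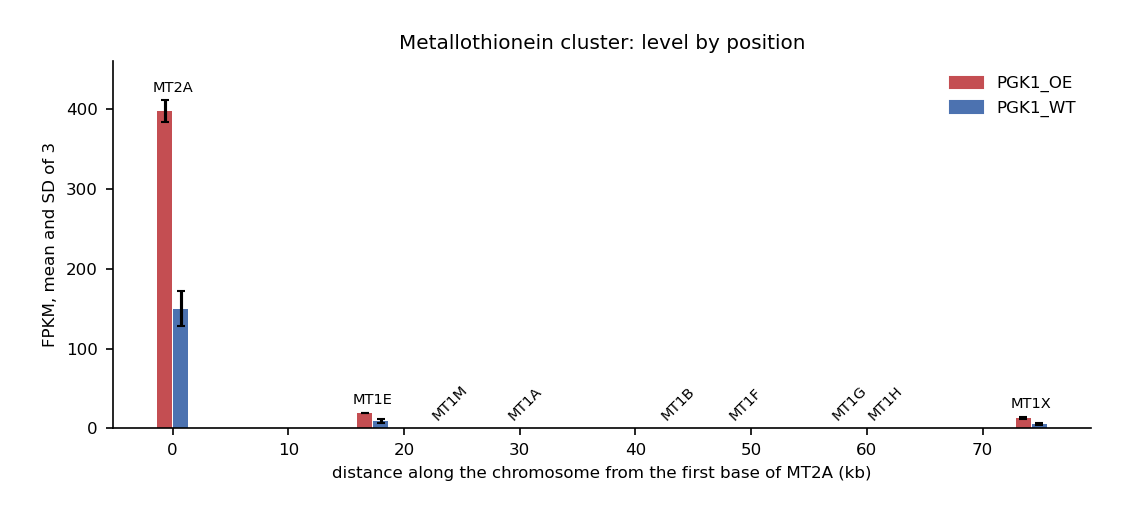
FPKM of the 9 metallothionein genes (bars: mean, error bars: SD, 3 libraries per group) against distance along chromosome 16 from the first base of MT2A in kb. MT2A, MT1E and MT1X carry signal, higher in PGK1_OE, and the 6 genes between MT1E and MT1X are at 0 in both groups.

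Metallothionein promoters carry metal response elements, the sites that MTF1 binds. The core was searched as TGCACNC and TGCGCNC on both strands in the 250 bases before each RefSeq transcript start (build GRCh38.p14). The windows of 5 genes are shown because they set MT2A and MT1X, which had counts, beside MT1B and MT1H, which had none, and the exporter gene SLC30A1. Capitals mark each match to the core, including matches on the other strand. The windows are chr16:56608334-56608583 for MT2A, chr16:56682220-56682469 for MT1X, chr16:56651636-56651885 for MT1B and chr16:56669564-56669813 for MT1H, all on the plus strand, and chr1:211579162-211579411 for SLC30A1 on the minus strand. A longer GENCODE model of MT2A begins before its window. The GENCODE gene SLC30A1 starts at 211578742, downstream of its window, so the bases just before that start were not searched.
MT2A: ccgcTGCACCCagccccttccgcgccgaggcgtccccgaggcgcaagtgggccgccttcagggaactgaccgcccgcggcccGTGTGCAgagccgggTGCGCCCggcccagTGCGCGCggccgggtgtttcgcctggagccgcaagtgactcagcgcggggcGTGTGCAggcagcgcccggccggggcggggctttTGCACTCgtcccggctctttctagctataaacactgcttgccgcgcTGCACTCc
MT1X: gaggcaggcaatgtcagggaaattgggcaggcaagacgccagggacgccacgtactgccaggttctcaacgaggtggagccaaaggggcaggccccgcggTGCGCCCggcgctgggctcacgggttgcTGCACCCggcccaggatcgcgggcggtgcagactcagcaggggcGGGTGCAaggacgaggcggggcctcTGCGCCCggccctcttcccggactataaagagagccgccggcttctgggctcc
MT1B: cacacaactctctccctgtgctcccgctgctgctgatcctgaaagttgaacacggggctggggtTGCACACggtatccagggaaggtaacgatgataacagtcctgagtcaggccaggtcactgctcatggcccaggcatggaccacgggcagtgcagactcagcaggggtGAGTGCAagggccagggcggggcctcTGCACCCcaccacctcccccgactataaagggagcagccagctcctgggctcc
MT1H: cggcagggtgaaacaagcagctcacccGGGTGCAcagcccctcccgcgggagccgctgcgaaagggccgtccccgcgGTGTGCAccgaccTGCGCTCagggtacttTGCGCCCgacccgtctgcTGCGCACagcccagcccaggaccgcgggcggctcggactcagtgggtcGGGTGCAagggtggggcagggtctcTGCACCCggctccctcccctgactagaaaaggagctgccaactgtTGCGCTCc
SLC30A1: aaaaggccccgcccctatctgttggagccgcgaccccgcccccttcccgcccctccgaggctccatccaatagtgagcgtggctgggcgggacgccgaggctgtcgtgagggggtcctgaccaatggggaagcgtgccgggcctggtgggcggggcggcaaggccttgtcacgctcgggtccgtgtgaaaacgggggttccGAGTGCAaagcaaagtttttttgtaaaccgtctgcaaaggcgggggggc

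The MT2A window held 7 matches, MT1X 4, MT1B 3, MT1H 8 and SLC30A1 1, and no matches overlapped one another. Among all 35116 RefSeq windows of the same length, 24.8% held at least 1 match and 1.58% held at least 3. MT1H, without counts, had the most matches of the 4 metallothioneins in the table, so the number of matches did not follow the level. MT1A, MT1E, MT1F, MT1G and MT1M had no window. Of 30 windows of transporter genes, 11 held a match (36.7%), and neither SLC39A7 nor MTF1 had one. The transporter genes on chromosome 8, SLC39A4, SLC39A14 and SLC30A8, were left out of this search. A match is a string of letters and does not show that MTF1 binds there.

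**Figure D3:**
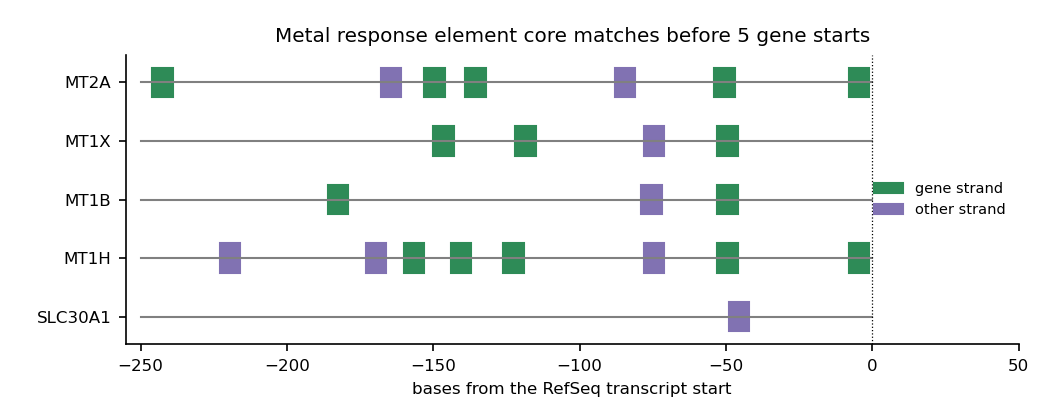
Position of each match to the metal response element core in the 250 bases before the RefSeq transcript start of 5 genes, in bases from that start, coloured by strand. MT1H, which had 0 counts, shows 8 matches, and MT2A, the most abundant metallothionein, shows 7.

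Among the 4 ZIP genes grouped here as intracellular, SLC39A7 was the only one to rise. That group includes SLC39A9, which is also found at the cell surface and which fell. SLC39A7 (ZIP7) releases zinc from the endoplasmic reticulum into the cytosol. It lies on chromosome 6 (33200445 to 33204439, plus strand, GRCh38). The gene had 192, 193 and 186 CPM in the PGK1_OE libraries, against 70.8, 65.9 and 71.7 CPM in the PGK1_WT libraries. Within each group the 3 libraries lay close together, and the groups were far apart. SLC39A7 rose 2.74-fold, a log2 fold change of 1.46 (edgeR adjusted p = 1.72e-10, SE 0.04, 95% interval 1.36 to 1.55). SLC39A7 shares 8.58% of its exonic bases with RXRB on the opposite strand, and whether counting used strand is not given in the sources used here. RXRB itself was lower in PGK1_OE, at 58.0 CPM against 73.5 CPM in PGK1_WT (log2 fold change -0.34, edgeR adjusted p = 3.18e-05).

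By length-scaled level, SLC39A7 ranked 2 among the zinc genes in PGK1_OE at 77.3 ± 7.98 FPKM, after MT2A. In PGK1_WT it ranked 6 at 29.4 ± 1.74 FPKM, level with SLC30A5 at 29.4 ± 0.284 FPKM (SD, n = 3 each). Each PGK1_OE library of SLC39A7 (73.7, 86.5 and 71.8 FPKM) lay above each PGK1_OE library of SLC39A14 (68.6, 67.5 and 65.1 FPKM), its next neighbour.

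The other intracellular ZIP genes did not share that rise. SLC39A9, found at the Golgi and cell surface, had 134, 126 and 136 CPM in PGK1_OE and 167, 160 and 162 CPM in PGK1_WT libraries, a log2 fold change of -0.30 (edgeR adjusted p = 4.25e-05, SE 0.04). The groups did not overlap. SLC39A9 shares 5.23% of its exonic bases with ERH on the opposite strand, which was higher in PGK1_OE (log2 fold change 0.66). SLC39A11 averaged 20.4 ± 0.807 CPM in PGK1_OE and 28.3 ± 1.24 CPM in PGK1_WT (SD, n = 3 each), with a log2 fold change of -0.47 (edgeR adjusted p = 8.14e-05, SE 0.07). SLC39A13, which moves zinc out of Golgi vesicles and is mutated in a form of Ehlers-Danlos syndrome, had 64.2, 61.4 and 55.0 CPM in PGK1_OE and 61.6, 58.2 and 60.1 CPM in PGK1_WT libraries. Its groups overlapped, the log2 fold change was 0.01 (95% interval -0.13 to 0.14, edgeR adjusted p = 0.934), and its sign changed with the scaling (-0.039 with library totals).

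**Figure D4:**
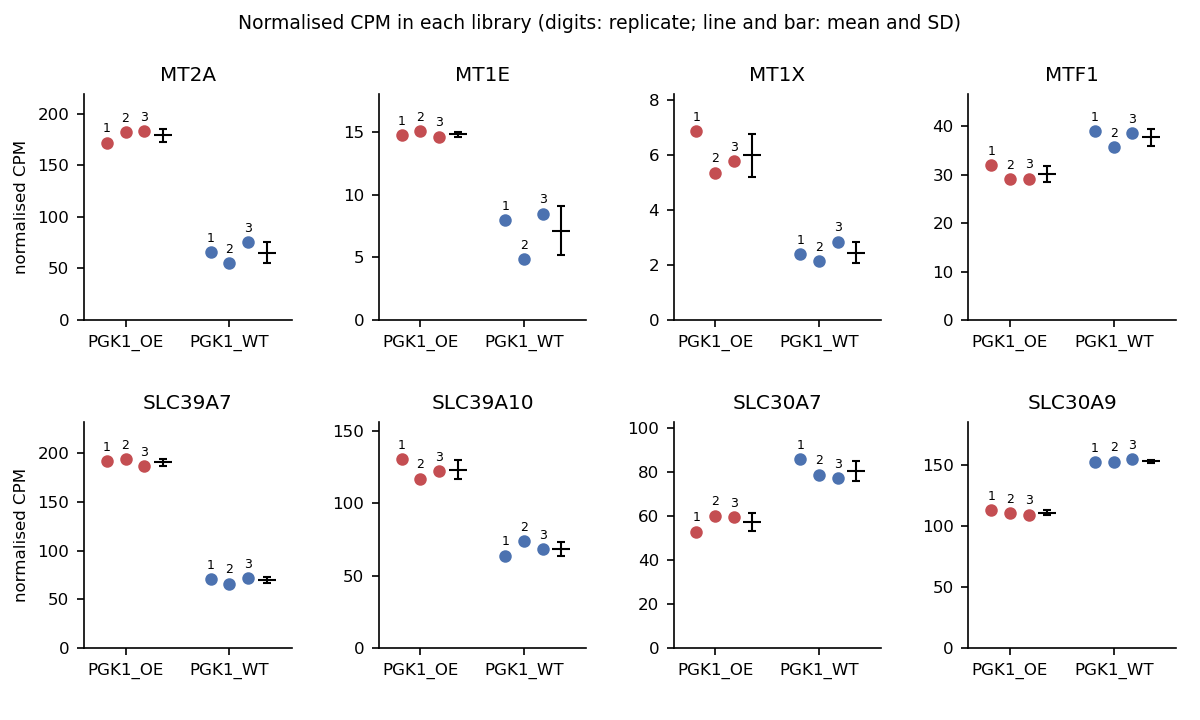
Normalised CPM in each of the 6 libraries for 8 zinc genes; points are libraries numbered by replicate, and the line and bar give mean and SD. The PGK1_OE libraries lie above the PGK1_WT libraries for MT2A, MT1E, MT1X, SLC39A7 and SLC39A10, and below them for MTF1, SLC30A7 and SLC30A9.

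Cell-surface importers mostly rose, by less than 2-fold (5 of 7 tested, beside 35.4% of all entries tested). SLC39A10 averaged 123 ± 6.65 CPM in PGK1_OE and 68.5 ± 5.04 CPM in PGK1_WT (SD, n = 3 each), a log2 fold change of 0.85 (edgeR adjusted p = 1.44e-07, SE 0.06). Its partner SLC39A6, with which it forms a heteromer known from cell migration and mitosis, averaged 103 ± 2.31 CPM in PGK1_OE and 61.5 ± 0.939 CPM in PGK1_WT (0.74, edgeR adjusted p = 2.44e-08, SE 0.04). Both members of that pair rose, and neither overlapped between groups.

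SLC39A1, a widely expressed importer, had 114, 114 and 116 CPM in PGK1_OE and 76.3, 69.4 and 79.8 CPM in PGK1_WT libraries (0.61, edgeR adjusted p = 8.17e-07, SE 0.05). The groups did not overlap. A GENCODE 29 gene on the same strand, AL358472.7, shares 60.8% of the exonic bases of SLC39A1, so reads of the pair cannot be separated by position there. AL358472.7 was not tested. SLC39A8, which also carries manganese and iron, averaged 54.4 ± 3.93 CPM in PGK1_OE and 35.5 ± 3.87 CPM in PGK1_WT (0.61, SE 0.08). SLC39A3 averaged 24.7 ± 0.258 CPM in PGK1_OE and 16.9 ± 1.18 CPM in PGK1_WT (0.55, SE 0.08). The edgeR adjusted p was 5.47e-05 for SLC39A8 and 5.58e-05 for SLC39A3.

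SLC39A14 was the exception among the abundant importers. It carries zinc, manganese and non-transferrin-bound iron, and had 345, 340 and 330 CPM in PGK1_OE, against 416, 407 and 405 CPM in PGK1_WT libraries. The groups did not overlap, and SLC39A14 fell, with a log2 fold change of -0.28 (edgeR adjusted p = 1.99e-05, SE 0.03). It was the second most abundant zinc gene in PGK1_WT at 84.7 ± 1.72 FPKM and the third in PGK1_OE at 67.0 ± 1.78 FPKM (SD, n = 3 each). SLC39A4, the intestinal importer mutated in acrodermatitis enteropathica, was low, with 95 to 140 counts in PGK1_OE and 139 to 150 counts in PGK1_WT libraries. In CPM the SLC39A4 groups did not overlap, at 3.47, 3.53 and 2.70 in PGK1_OE and 3.67, 4.24 and 3.96 in PGK1_WT libraries. The log2 fold change of SLC39A4 was -0.29 and was not called (95% interval -0.72 to 0.13, edgeR adjusted p = 0.198). SLC39A5 had 10 counts over the PGK1_OE libraries and 5 over the PGK1_WT libraries, and SLC39A2 had 5 over the PGK1_OE libraries and 6 over the PGK1_WT libraries. Neither was tested. SLC39A12 had 0 counts throughout.

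**Figure D5:**
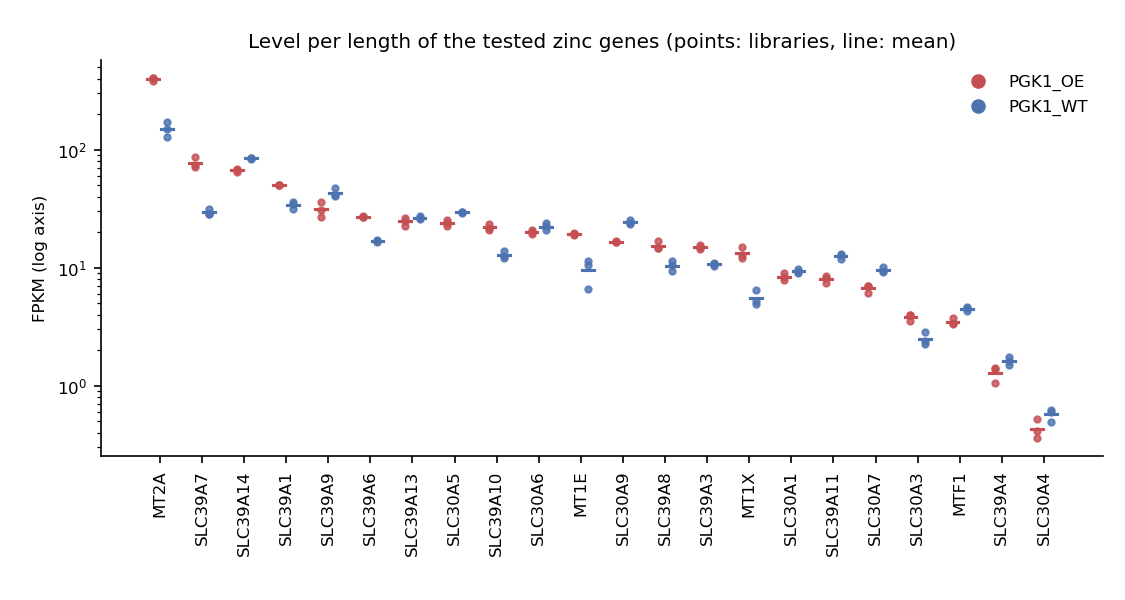
FPKM of the 22 tested zinc genes on a log axis, ordered by their PGK1_OE mean; points are libraries and lines are means. MT2A is the most abundant in both groups, and SLC39A7 is second in PGK1_OE and sixth in PGK1_WT.

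ZnT genes of the early secretory pathway all fell (3 of 3, beside 35.8% of all entries tested). SLC30A5 and SLC30A6 encode subunits of a complex that loads zinc into the Golgi, and SLC30A7 acts there as a pair of like subunits. SLC30A7 averaged 57.5 ± 4.09 CPM in PGK1_OE and 80.5 ± 4.59 CPM in PGK1_WT (SD, n = 3 each), and fell 1.40-fold, a log2 fold change of -0.49 (edgeR adjusted p = 2.45e-05, SE 0.06). SLC30A5 had 77.0, 84.5 and 73.5 CPM in PGK1_OE and 96.0, 93.6 and 93.4 CPM in PGK1_WT libraries (-0.27, edgeR adjusted p = 8.17e-04, SE 0.05). An antisense gene, AC010273.1, shares 9.20% of the exonic bases of SLC30A5. SLC30A6 had 93.7, 90.7 and 94.9 CPM in PGK1_OE and 115, 105 and 106 CPM in PGK1_WT libraries (-0.22, edgeR adjusted p = 0.00144, SE 0.05). Groups did not overlap for any of the 3, but the fall of SLC30A6 was not called on the FPKM scale (-0.15, limma adjusted p = 0.0599 on log2(FPKM + 1)).

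SLC30A9, the mitochondrial zinc exporter, fell as well, with 113, 110 and 109 CPM in PGK1_OE against 152, 153 and 154 CPM in PGK1_WT libraries. The libraries of each group lay within a few CPM of one another, and SLC30A9 changed by -0.47 on the log2 scale (edgeR adjusted p = 3.79e-07, SE 0.04). SLC30A1, the main exporter at the cell surface and an MTF1 target, had 53.9, 57.4 and 50.9 CPM in PGK1_OE and 57.5, 56.2 and 60.7 CPM in PGK1_WT libraries. Its groups overlapped, and the log2 fold change of -0.11 (95% interval -0.23 to 0.02) was not called (edgeR adjusted p = 0.126). A fall of SLC30A1 was called without PGK1_OE replicate 2 (-0.15, edgeR adjusted p = 0.0487) and when libraries were scaled by their totals (-0.15, edgeR adjusted p = 0.0326). Under no alternative did SLC30A1 rise.

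Vesicle ZnT genes were low. SLC30A3, best known for loading zinc into synaptic vesicles, rose, and was the only one of the 7 ZnT genes tested that did. It ranged from 11.2 to 12.4 CPM in PGK1_OE and from 7.10 to 8.18 CPM in PGK1_WT libraries, and the groups did not overlap. Its log2 fold change was 0.66 (edgeR adjusted p = 2.52e-04, SE 0.11). SLC30A4 averaged 3.36 ± 0.640 CPM in PGK1_OE and 4.29 ± 0.498 CPM in PGK1_WT (-0.35, 95% interval -0.80 to 0.09, edgeR adjusted p = 0.140). SLC30A2, the islet gene SLC30A8 and the manganese exporter gene SLC30A10 had 0 counts in every library.

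Genes outside these families that carry or use metals were examined as 5 lists. In this and the next paragraphs MCOLN1, TRPM7, MT3, MT4, GCLC, SOD1, SCO1, CUTC and ALPL fall outside the rule for named genes and were chosen after their values were seen. Of 8 genes on other zinc routes 4 were tested and 2 called (50%, below the 71.2% of all entries). MCOLN1, a lysosomal channel, rose (0.76) and TRPM7, a divalent cation channel, fell (-0.19). The brain and epithelial metallothioneins MT3 and MT4 had 0 counts throughout. Of 3 MTF1 targets outside the families all were called (beside 71.2% of all entries). The placental growth factor gene PGF rose, at 81.3 ± 7.25 CPM in PGK1_OE and 25.4 ± 0.870 CPM in PGK1_WT (SD, n = 3 each; log2 fold change 1.68, edgeR adjusted p = 1.60e-09, SE 0.07). SELENOH, a selenoprotein gene, fell, at 3.17 ± 0.560 CPM in PGK1_OE and 8.53 ± 4.05 CPM in PGK1_WT (-1.42, edgeR adjusted p = 0.00594, SE 0.33). Its PGK1_WT libraries spread widely, at 5.81, 13.2 and 6.58 CPM. Over the 17 alternatives the SELENOH log2 fold change ranged from -1.63 to -0.96, and the call held in all. GCLC, which encodes the catalytic subunit of glutamate-cysteine ligase, an enzyme of glutathione synthesis, fell as well (-0.55).

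Copper is the other metal that metallothioneins hold, and genes of copper handling changed in both directions. Of 12 tested 5 rose, 4 fell and 3 were not called (75.0% called, beside 71.2% of all entries), with a median log2 fold change of 0.17. Among called genes below 2-fold, the largest changes were a rise of SOD1 (0.94, edgeR adjusted p = 1.50e-07) and falls of SCO1 (-0.90, edgeR adjusted p = 1.13e-08) and CUTC (-0.79, edgeR adjusted p = 1.15e-06). SLC31A2, a copper transporter gene, had 40, 38 and 38 counts in PGK1_OE, against 24, 13 and 12 counts in PGK1_WT libraries (log2 fold change 1.18, edgeR adjusted p = 0.0171, SE 0.39). SCO2, whose product loads copper into cytochrome oxidase, had 51, 48 and 38 counts in PGK1_OE, against 6, 23 and 26 counts in PGK1_WT libraries (log2 fold change 1.23, edgeR adjusted p = 0.0389, SE 0.48). The rise of SLC31A2 was lost without PGK1_OE replicate 3 (adjusted p = 0.0546), PGK1_WT replicate 2 (0.0563) or PGK1_WT replicate 3 (0.0697). The rise of SCO2 was lost without any 1 of the 3 PGK1_OE libraries (adjusted p of 0.0749 or more) and without PGK1_WT replicate 1 (0.81, adjusted p = 0.0879). Of 6 genes of manganese and divalent metal transport 5 were tested, with 2 higher, 2 lower (80% called, beside 71.2% of all entries) and a median of 0.17.

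Of 9 zinc-requiring enzymes of the cell surface or secreted fluid 6 were tested, with 3 higher, 1 lower and 2 not called (66.7% called, below the 71.2% of all entries). ENPP1, which makes pyrophosphate outside the cell, rose, at 60.6 ± 1.94 CPM in PGK1_OE and 21.3 ± 2.77 CPM in PGK1_WT (SD, n = 3 each; log2 fold change 1.51, edgeR adjusted p = 4.50e-08, SE 0.09). NT5E, the 5′-nucleotidase CD73, fell, at 1.11 ± 0.209 CPM in PGK1_OE and 2.48 ± 0.326 CPM in PGK1_WT (-1.16, edgeR adjusted p = 0.00220, SE 0.27). The alkaline phosphatase gene ALPL, whose enzyme receives zinc through the secretory pathway ZnT proteins, did not pass the filter on low counts. It had 0 counts in each PGK1_OE library and 8, 10 and 6 counts in the PGK1_WT libraries. With no low-count filter, 5 enzymes of this list were called in place of 4.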

How the data were processed

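PolyA RNA of HT1080 cells was sequenced in 6 libraries, 3 PGK1_OE and 3 PGK1_WT, grouped by title and matched to table columns by description. All share 1 batch label. The submitters' processing notes name fastp, HISAT and hg38. Not given in the sources used here are versions, the counter, its strand setting and the annotation. Gene counts as deposited are raw reads per gene, and the deposited FPKM values are the authors' own, scaled by length and library size. Depth was 34425162 to 40538274 counts, which leaves genes with few counts imprecise.

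Counts were fitted in R 4.3.3 with edgeR 4.0.16: filterByExpr (14322 of 21619 entries kept), TMM, a robust quasi-likelihood test with group as the only term, two-sided, Benjamini-Hochberg over all entries tested. Each SE is |log2 fold change| over the root of the F statistic. Steps were tested on simulated counts. Far fewer genes were changed there than the 71.2% of entries called here, so scaling under so wide a change was not tested. Within groups, chi-square over its degrees of freedom was 7.93 to 15.2 for pairs of libraries, more than counting error alone gives. That spread does not show whether the libraries came from separate cultures. Each library was counted as its own replicate. Alternatives used DESeq2 1.42.0, limma 3.58.1 on log2(FPKM + 1) or log2(FPKM + 0.1), other scalings and filters, a replicate block and each library left out.

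The genes, lists and tests were chosen with earlier results of these data known. Values in every library are given for MTF1, metallothioneins with at least 10 counts in 3 libraries, called transporters changed at least 2-fold, the 3 of each transporter family with the highest mean FPKM, and genes whose call changed under an alternative. From the 5 other metal lists, called genes changed at least 2-fold are named, at most 4 a list. SLC39A9 and SLC39A13 are also given by library. Protein sequences were not used here. Gene positions and overlaps come from GENCODE 29 on GRCh38, matched by Ensembl identifier. Promoter windows come from RefSeq on GRCh38.p14 and were used for 26 of 34 genes. Windows on chromosome 8 were left out of the search in members, which removes SLC39A4, SLC39A14 and SLC30A8.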

Additional observations from a re-analysis of the deposited data

How the results depend on the processing

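All 17 alternatives, 1 of them a stricter threshold on the same fit, left 10 zinc genes higher and 7 to 9 lower, and 19 of 22 tested genes kept both direction and call throughout. The exceptions were SLC30A1 and SLC30A6, described above, and SLC39A13, never called, whose log2 fold change became -0.039 with library totals, -0.099 on log2(FPKM + 1) with and without the FPKM filter and -0.103 on log2(FPKM + 0.1), and ranged from -0.035 to 0.067 when 1 library was left out. SLC30A4 was removed by the FPKM filter. The summed metallothionein log2 fold change ranged from 1.31 to 1.54 when 1 library was left out, lowest without PGK1_WT replicate 2. On log2(FPKM + 1) with no filter, where the pseudocount shrinks changes of low genes, NT5E had -0.39, SCO2 0.52 and SLC31A2 0.30. An adjusted p under 0.01 left 5 copper genes called in place of 9. With the replicate number as a block, 9943 entries and 18 zinc genes were called, against 10195 and 18 without it, and no zinc gene changed call. Deviations of same-numbered libraries correlated at -0.01, -0.01 and 0.10, and not every library correlated best with its own number, so the numbers were not taken to pair libraries. No scaling moved the median of all entries by more than 0.1 on the log2 scale. Depth limits SLC39A2, SLC39A5, SLC39A4 and SLC30A4, which had too few counts for a narrow interval.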

Other observations

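The deposited FPKM and count tables gave different sizes of change for some transporters. The log2 ratio of mean FPKM was -0.65 for SLC39A11, against a log2 fold change of -0.47 from counts. For SLC39A9 it was -0.45, against -0.30 from counts. In that gene the PGK1_OE libraries had 31.1, 27.1 and 36.1 FPKM while their counts gave 134, 126 and 136 CPM, so the libraries spread further in FPKM than in CPM. For MT2A and SLC39A7 the log2 FPKM ratio was 1.40, against 1.45 from counts for MT2A and 1.46 for SLC39A7. Which of the steps that gave the FPKM values accounts for this was not tested.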
